A study of Rattus norvegicus with 6 samples.

Results

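Cultures labelled as rat hippocampal astrocytes were compared through a pair of RNA libraries, a control and a culture held for 6 h in 200 nM insulin. For every gene the log2 level in the control was subtracted from that at 6 h, so a difference of 1 is a 2-fold higher level at 6 h. Levels are FPKM, sequenced fragments scaled to both transcript length and library size, so that levels of different genes can be compared. A gene entered when both libraries had a value and at least 1 of them reached 1 FPKM (a log2 value of 0). A gene that reached this floor in only 1 library could only be higher in that library. Of 37183 gene symbols in the series, 21513 had a value in both libraries and 6206 passed that floor, 4636 of them named genes and 1570 locus identifiers, small RNAs, pseudogenes or clones.

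The series holds 6 libraries, 1 for each of 6 groups: primary hippocampal astrocytes and hippocampal neurons of the rat, each as a control and after 6 h and 12 h of insulin. The astrocytes had grown in 10% FBS and 25 mM glucose, and 4 h before treatment all of them, controls included, were moved to 2% FBS and 5 mM glucose, whereas the neurons went into serum-free medium with an insulin-free supplement. Each culture is called primary, with no animal, age or pooling given. The control is titled saline and is otherwise described as untreated, at 0 h, so insulin and a further 6 h in the changed medium cannot be told apart. With 1 library per group there was no replicate, no test was possible, and every comparison below is one of sizes between single libraries. "Rose" and "fell" are kept for differences of 1 or more, and a smaller size of 0.5 (1.41-fold) serves for counts.

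Astrocytes take up glucose, store glycogen, supply lactate and cholesterol to neurons, and secrete matrix and signalling proteins. Insulin acts through its receptor, the kinases PI3K and AKT and their targets: AKT keeps FoxO transcription factors out of the nucleus, and insulin raises the lipid synthesis factor Srebf1 in many tissues. Secreted chemokines draw in immune cells, and IGF-binding proteins hold insulin-like growth factors in the extracellular fluid and set how much of them reaches receptors.

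Across the 6206 genes the middle of the distribution lay close to 0. The median difference was 0.09, differences ran from -0.44 at the 5th percentile to 0.57 at the 95th, and 63.9% of genes lay above 0. At least 2-fold higher at 6 h were 65 genes, which is 1.05% of those compared, and at least 2-fold lower were 55, or 0.886%. At the smaller size 443 genes (7.14%) were higher and 235 (3.79%) lower. Low levels held many of the large differences, since 36 of the 65 and 24 of the 55 lay between 1 and 2 FPKM. Named genes made up 34 of the 65 and 15 of the 55, of which 8 and 8 reached 5 FPKM in at least 1 library. The split of higher against lower depended on the scaling, being 43 to 64 after centring on genes at 5 FPKM or more and 36 to 65 after the quantiles of the 2 libraries were made equal over shared symbols. The 6 h library had values for 23814 symbols and the control for 22891.

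**Figure D1:**
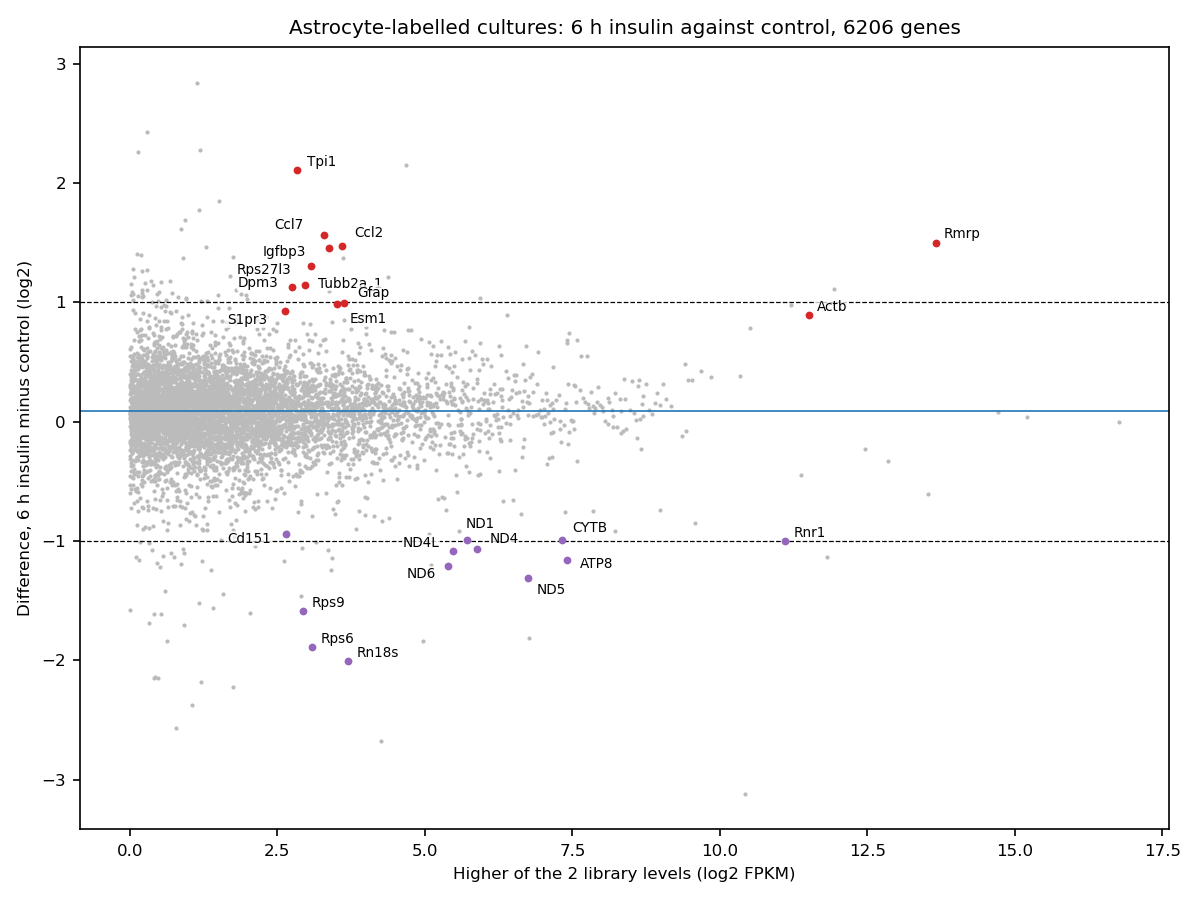
Difference between 6 h of insulin and control (log2, vertical axis) against the higher of the 2 library levels (log2 FPKM, horizontal axis) for 6206 genes, 1 grey point per gene. Dashed lines mark 2-fold, the blue line marks the median of 0.09, and coloured points are the 12 named genes of each direction with the largest differences at 5 FPKM or more. Chemokines and Igfbp3 stand among the higher genes, and genes of the mitochondrial genome fill most of the lower group.

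The marker genes describe a culture with some astrocyte genes and some genes of contractile and matrix-producing cells. Gfap, the intermediate filament of astrocytes, stood at 6.23 FPKM in the control, the connexin Gja1 at 11.9, the receptor Fgfr3 at 22.1 and glutamine synthetase (Glul) at 5.32. Of 13 astrocyte markers 7 passed the floor, while the water channel Aqp4 was at 0.098, the glutamate transporter Slc1a3 at 0.115 and Slc1a2 at 0.001. In the same library smooth-muscle actin (Acta2) was at 54.4 FPKM, transgelin (Tagln) at 353 and the type I collagen chain Col1a1 at 44.2. These lists had low members too, with 4 of 7 pericyte and smooth-muscle markers and 6 of 10 fibroblast markers above the floor. Myh11 was at 0.008 FPKM, Rgs5 at 0.004, Des at 0.030 and Dcn at 0.066. The label is therefore kept here only as astrocyte-labelled cultures, and in bulk RNA fewer cells of a type and less RNA per cell cannot be told apart.

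Markers of other cells moved little in sum between these libraries, with exceptions at low level. The 7 pericyte and smooth-muscle markers went from 425 to 438 FPKM in sum, most of it Tagln (353 and 372). The 10 fibroblast markers went from 583 to 647, most of it S100a6 (478 and 547), while Fn1 and Col3a1 were lower at 6 h and Col1a1 higher. The 13 neuron markers summed to 4.34 and 5.21, and of these Nefl, a neurofilament chain, rose from 1.14 to 2.30 FPKM while Stmn2 was at 2.43 and 1.97. The 11 microglial markers summed to 4.20 and 6.67, nearly all of it Tmem119 (4.09 and 6.42), with C1qa, C1qb and Tyrobp blank in both libraries and Aif1, Cx3cr1, Itgam and P2ry12 at 0.013 FPKM or less. The 7 endothelial and 5 ependymal markers summed to 0.55 and 0.04 FPKM in the control and to 0.36 and 0.08 at 6 h, and none of them passed the floor. Oligodendrocyte markers summed to 7.47 and 7.31.

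Gfap itself was among the genes with the largest differences at 5 FPKM or more. Its levels were 6.23 FPKM (control), 12.4 (6 h) and 8.45 (12 h), and its 6 h difference of 0.995 was just short of 2-fold. The other astrocyte markers above the floor lay between -0.34 and 0.14, with Aldoc at 6.02 and 6.25, Gja1 at 11.9 and 10.8 and Glul at 5.32 and 4.20 FPKM. The 5 markers valued in both libraries but under the floor were all higher at 6 h, with a median of 0.56 against 0.22 for all genes under the floor, as in Aqp4 at 0.098 and 0.212 FPKM. Gfap was at 96.7 FPKM in the neuron-labelled control, and 40 genes at 10 FPKM or more there and under 0.5 FPKM in the astrocyte control had a median 6 h difference of 0.58, against 0.28 for all 12710 genes at that low level. The part of such RNA in the Gfap difference was not tested.

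Chemokines were higher as a list at 6 h. All 5 that passed the floor, of 20 listed, were higher at 6 h by at least 0.5, and 2 of them rose. Cxcl12 passed the floor only through its 6 h level, so its direction was fixed by the floor. The median of the 5, which is the value of Cxcl12, was 0.78, against 0.09 over all genes. The calls compare with 1.05% of all genes higher by 2-fold and 7.14% by the smaller size. Ccl7 and Ccl2, neighbouring members of the CC family that attract monocytes, rose most. Ccl7 measured 3.31 FPKM in the control library, 9.79 after 6 h and 3.65 after 12 h, a 2.96-fold rise at 6 h with a log2 difference of 1.56. Ccl2 was at 4.33, 12.0 and 5.18 FPKM, a 2.78-fold rise with a difference of 1.48. Both were high in the 6 h library alone. Cxcl1, which attracts neutrophils, was at 3.08, 5.12 and 2.63 FPKM, with a 6 h difference of 0.74. Cxcl12, a chemokine of progenitor cells that binds Cxcr4, was at 0.666, 1.14 and 0.641 FPKM with a difference of 0.78, and the membrane-bound Cxcl16 was at 1.48, 2.16 and 1.31 FPKM with 0.54. The summed level of the listed chemokines was 13.2 FPKM in the control library, 31.4 after 6 h and 13.9 after 12 h. The 12 h values share the control library with the 6 h values.

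Because these genes are switched by transcription factors that read short DNA words near the start site, the 250 bases before the start of Cxcl1 and Ccl7 are shown. They come from RefSeq's tables for assembly GRCr8, a later build than the one used for the table of levels, and are written 5′ to 3′ on the gene's strand. Capitals mark matches on either strand to GGGA followed by any 4 bases and CC, an NF-kB (kappa-B) word, and, in Ccl7, to TATAAA. The Cxcl1 window lies at chr14:17479322-17479571 on the minus strand and the Ccl7 window at chr10:67513845-67514094 on the plus strand.
Cxcl1: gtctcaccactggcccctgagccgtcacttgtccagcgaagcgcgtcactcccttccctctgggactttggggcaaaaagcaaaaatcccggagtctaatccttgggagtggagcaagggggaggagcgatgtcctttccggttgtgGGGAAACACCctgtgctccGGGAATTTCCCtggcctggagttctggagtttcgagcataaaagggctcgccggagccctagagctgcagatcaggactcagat
Ccl7: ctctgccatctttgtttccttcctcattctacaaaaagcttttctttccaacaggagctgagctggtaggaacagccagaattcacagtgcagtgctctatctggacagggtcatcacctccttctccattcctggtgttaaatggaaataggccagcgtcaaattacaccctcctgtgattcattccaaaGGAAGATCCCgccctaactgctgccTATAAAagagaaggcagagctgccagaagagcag
Counted back from the start site, Cxcl1 had kappa-B matches from -103 to -94, from -84 to -75 and, on the other strand and overlapping the one before, from -83 to -74. Ccl7 had 1 such match, from -59 to -50 on the reverse strand, and a TATAAA from -34 to -29. Of the 4 compared chemokines with a promoter in the table, 2 held a kappa-B match, against 22.1% of 3688 promoters of compared genes and 16.8% of all 27457. TATAAA was found in 13.1% of all promoters. A match describes letters in this window and shows no binding.

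Below the floor the other chemokines with a value in both libraries were also all higher, at levels that carry little weight. These were 7 genes, among 15307 genes under the floor of which 67.5% were higher at 6 h. Ccl20 went from 0.022 to 0.446 FPKM, the highest level of the 7. Cxcl10, an interferon-responsive chemokine, was at 0.065 and 0.191 FPKM, Cx3cl1 at 0.102 and 0.260, and Cxcl3, Cxcl6, Cxcl14 and Ccl5 stayed at or under 0.122. Ccl3, Ccl4, Ccl12 and Cxcl13 were blank in both libraries. The microglial markers under the floor were likewise all higher, 6 of 6 with values from 0.002 to 0.165 FPKM, and their part in the chemokine differences was not tested.

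Other secreted cytokines and adhesion molecules gave smaller values. Of 5 compared (19 listed) 4 lay above the all-gene median and none reached 2-fold, with a list median of 0.46. Csf1, the growth factor of macrophages and microglia, went from 4.33 to 6.97 FPKM, a difference of 0.69. Lif was at 1.14 and 1.64, and Clcf1, another cytokine of the same receptor family, at 1.26 and 1.73. Icam1, a leukocyte adhesion molecule, lay on the other side at 14.8 and 12.2 FPKM. Il6 stayed just under the floor at 0.995 and 0.980.

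Subunits, targets and inhibitors of NF-kB showed differences of intermediate size. The 11 compared had a median of 0.29, 8 of them lay above the all-gene median, 3 reached 0.5 against 7.14% of all genes and none reached 2-fold. The 3 were Zc3h12a, Tnfaip3 and Tnfaip2 (1.23 and 2.08 FPKM). Of the 11, Zc3h12a, Tnfaip3 and Nfkb2 passed the floor only through their 6 h level, so their direction was fixed by the floor. Zc3h12a, an RNase that degrades inflammatory messages, had levels of 0.738 (control), 1.35 (6 h) and 1.07 FPKM (12 h), a 6 h difference of 0.87. Tnfaip3, the ubiquitin-editing inhibitor A20, was at 0.768, 1.17 and 0.646 with 0.61. Nfkbia, which holds NF-kB in the cytoplasm, was at 3.75, 5.14 and 3.78 with 0.45. Like the chemokines, Tnfaip3 and Nfkbia were high in the 6 h library alone. Ptgs2, the prostaglandin synthase, differed by 0.24, and the subunit Rela by 0.05. Interferon-response genes gave no common direction: 4 of 8 lay above the all-gene median, with the proteasome subunit Psmb8 at 1.40 and 2.32 FPKM (0.73) and B2m, a chain of class I MHC molecules, at 30.1 and 25.8 (-0.22).

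Among cytokine receptors 1 of 11 was higher by 0.5 and 1 lower, where 7.14% and 3.79% of all genes were, so the counts are near the background. Tnfrsf12a, the TWEAK receptor, went from 29.0 to 43.0 FPKM, a difference of 0.57. Cxcr4, the receptor of Cxcl12, was at 1.06 and 0.717 FPKM, a difference of -0.56, and at 0.480 at 12 h. It passed the floor only through its control level, so its direction was fixed by the floor. Il6st, Il1r1 and Ifnar1 differed by -0.13, -0.08 and -0.10.

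**Figure D2:**
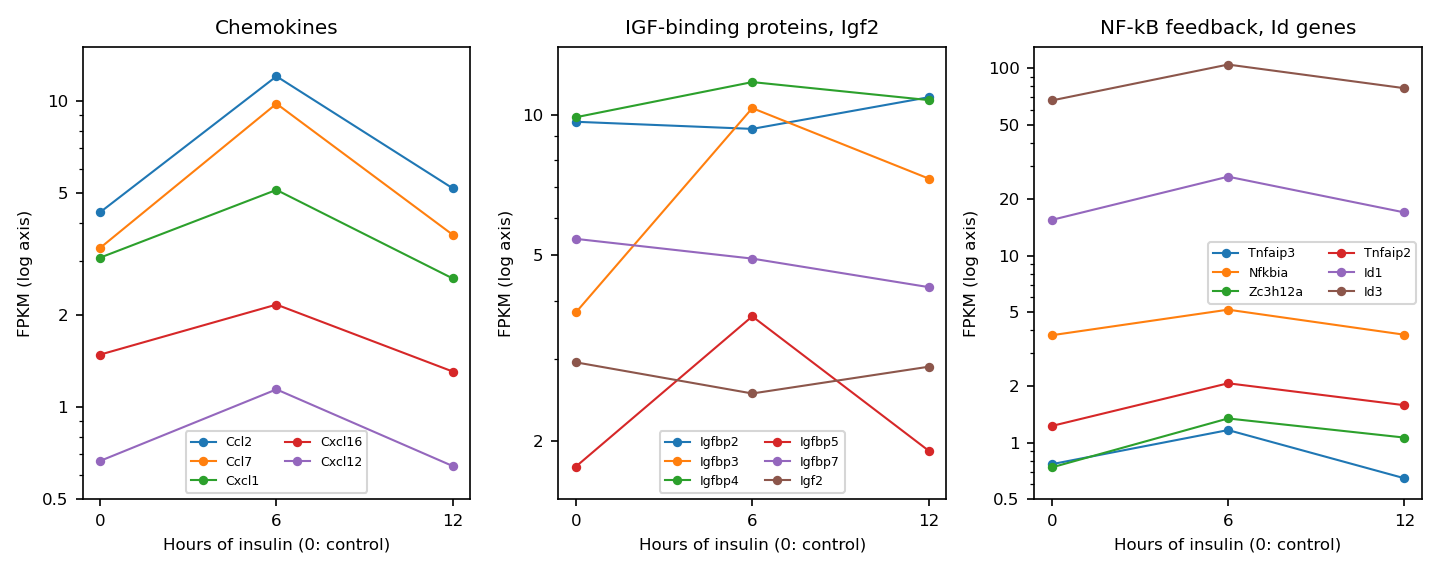
Levels in FPKM (log axis) in the control (0 h), 6 h and 12 h astrocyte-labelled libraries, 1 library per point, for chemokines, IGF-binding proteins with Igf2, and NF-kB feedback and Id genes. All 5 chemokines peak at 6 h, with Ccl2 at 4.33, 12.0 and 5.18 FPKM, while Igfbp3 stays above its control at 12 h (7.31 against 3.77).

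Growth factor binding proteins split into members that rose and members near 0. Igfbp3 and Igfbp5 rose, Stc2 came close, and the other 7 of the 10 compared genes of the IGF list lay between -0.22 and 0.25, so that the list median was -0.07. The share of 2 in 10 stands beside 1.05% of all genes. Igfbp3, the main carrier of IGFs in blood, measured 3.77 FPKM in the control library, 10.4 after 6 h and 7.31 after 12 h, a 2.74-fold rise with a difference of 1.46. Igfbp5, which binds IGFs and matrix, was at 1.76, 3.70 and 1.91 FPKM, with a difference of 1.07. Stc2, which inhibits the protease that cleaves Igfbp4, was at 0.753, 1.49 and 1.20 FPKM with 0.98. It passed the floor only through its 6 h level, so its direction was fixed by the floor. Igfbp5 was high at 6 h alone, whereas Igfbp3 and Stc2 were also above the control at 12 h. The more abundant binding proteins differed little, Igfbp4 at 9.90 and 11.8 FPKM, Igfbp2 at 9.68 and 9.34 and Igfbp7 at 5.43 and 4.92. The ligand Igf2 was at 2.95 and 2.53 FPKM, and Igf1 stayed under the floor at 0.075 and 0.085. The receptors Igf1r and Insr were under it too, at 0.569 and 0.471 and at 0.137 and 0.117 FPKM.

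Some antagonists and targets of BMP and TGF-beta signalling were higher at 6 h. Of 20 compared genes 13 lay above the all-gene median, 5 were higher by 0.5 against 7.14% of all genes, none was lower by 0.5 against 3.79%, and the list median was 0.22. The Id genes are direct BMP targets that block differentiation factors: Id1 had levels of 15.5 (control), 26.4 (6 h) and 17.0 FPKM (12 h), a 6 h difference of 0.77. Id3 was at 67.4, 105 and 78.3 FPKM with 0.64. The secreted BMP antagonists Nog and Grem1 were at 2.39 and 3.78 and at 1.82 and 2.71 FPKM, and the intracellular inhibitor Smad6 at 0.816 and 1.21. Smad6, counted among the 5, passed the floor only through its 6 h level, so its direction was fixed by the floor. The ligands had no common direction. Inhbb, an activin chain, was at 1.31 and 1.76 FPKM (0.42), while Bmp4 was at 3.21 and 2.46, Tgfb2 at 2.75 and 2.72 and Tgfb3 at 48.7 and 47.9. Inhba, another activin chain, was at 7.34 and 6.63.

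Other growth factor ligands had a median of 0.18 over 15 genes. Pgf, a relative of VEGF, was at 4.06 and 6.54 FPKM (0.69), adrenomedullin (Adm), a vasodilator peptide, at 5.40 and 8.19 (0.60), and midkine (Mdk) at 1.93 and 2.72 (0.49). The most abundant member was Ctgf, a matrix-associated target of TGF-beta and YAP, which went from 582 to 741 FPKM. Endothelin (Edn1) and the guidance cue Sema3c lay lower, at 10.3 and 8.09 and at 4.34 and 3.27 FPKM. Vegfa differed by -0.03. Esm1, a secreted proteoglycan, and S1pr3, a receptor of sphingosine phosphate, were among the 12 highest named genes, at 5.75 and 11.4 and at 3.26 and 6.19 FPKM, both short of 2-fold.

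The genes that FoxO factors or fasting raise were lower among those above the floor. None of the 8 compared lay above the all-gene median, 4 were lower by 0.5 or more against 3.79% of all genes, none fell 2-fold, and the median was -0.47. Txnip, which restrains glucose uptake, had levels of 15.9 (control), 10.3 (6 h) and 12.4 FPKM (12 h), a 6 h difference of -0.63. Ccng2, a cyclin of resting cells, was at 2.26, 1.46 and 1.89 FPKM with -0.63, and Irs2, the insulin receptor substrate, at 2.63, 1.80 and 1.76 with -0.54. Foxo4 itself was at 2.50, 1.57 and 1.73 FPKM with -0.67. All 4 were below the control at both times, which share that control. Cdkn1b, the cell cycle inhibitor p27, was at 5.91 and 4.46, Gadd45a at 14.3 and 11.7 and Cited2 at 41.4 and 34.4 FPKM. The 16 listed members under the floor split into 8 higher and 8 lower, and the median with no floor was -0.20. Genes of the insulin to AKT pathway, Irs2 among them, showed no common direction, with Akt1 at 6.55 and 7.01, Pik3ca at 1.18 and 0.891 and a median of 0.11 over 10 genes.

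Glycolysis genes were mostly higher by small amounts. Of 18 compared 15 lay above the all-gene median, 4 reached 0.5 against 7.14% of all genes, 1 rose against 1.05%, and the list median was 0.27. Ldha, which makes lactate, had levels of 15.6 (control), 22.5 (6 h) and 22.2 FPKM (12 h), a 6 h difference of 0.53. The lactate transporter Slc16a1 was at 1.21 and 1.73 (0.51), the phosphofructokinase chain Pfkl at 1.04 and 1.51 (0.54) and the glucose transporter Slc2a1 at 1.06 and 1.34 (0.34). Slc2a3 lay lower at 1.11 and 0.911. Gapdh, the most abundant member, was at 53.8 and 61.5 FPKM. The 1 member that rose, the isomerase Tpi1, was at 1.65, 7.11 and 7.46 FPKM, a 4.32-fold rise at 6 h, and reads can be split between this gene and its near-identical copies, as described further on. Glycogen genes had a median of 0.14 over 8, with glycogen synthase (Gys1) at 1.46 and 2.01 and the glycogen-targeting subunit Ppp1r3c at 2.89 and 2.28 FPKM.

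Cholesterol genes were all above 0 and none reached 2-fold. Of 19 compared 18 lay above the all-gene median, the median was 0.29 at 6 h and 0.49 at 12 h, and the summed level was 78.3 FPKM in the control library, 94.3 after 6 h and 109 after 12 h. Msmo1, an oxidase that removes methyl groups from sterols, was at 8.22, 10.5 and 11.8 FPKM with a 6 h difference of 0.36. Fdps, which makes farnesyl diphosphate, was at 11.0, 13.5 and 16.3 with 0.30. The desaturase Sc5d was at 4.05, 4.94 and 6.10 with 0.29, and the factor Srebf2 at 1.21, 1.27 and 1.49 with 0.07. In each of these the 12 h level was the highest of the 3, unlike the chemokines. None of the 13 compared cholesterol genes with a promoter in the RefSeq table held TCACNCCAC, the letters of a sterol regulatory element, on either strand within 250 bases, where 0.976% of all promoters did.

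**Figure D3:**
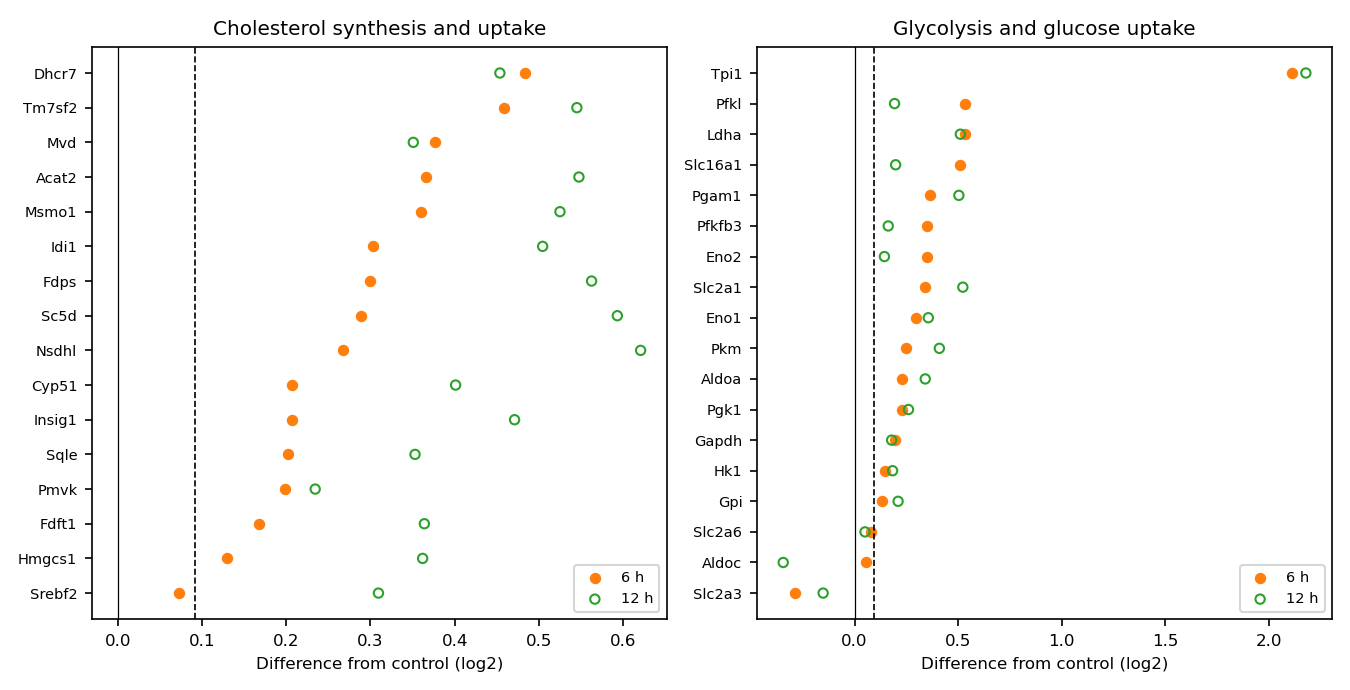
Differences from the astrocyte control (log2, horizontal axis) at 6 h (filled) and 12 h (open) for 16 of the cholesterol genes and 18 glycolysis genes, 1 library per point; both times share the control. The dashed line is the 6 h median of all genes, 0.09. The cholesterol genes plotted lie from 0.07 to 0.48 at 6 h, and Tpi1, at 2.11, stands apart from the other glycolysis genes.

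In fatty acid metabolism the lipid synthesis factor Srebf1 and the desaturase Scd1 stood highest. Srebf1 had levels of 1.48 (control), 2.65 (6 h) and 1.86 FPKM (12 h), a 6 h difference of 0.84. Scd1 was at 0.832, 1.44 and 1.84 FPKM with 0.79, while the row named Scd, a far more abundant desaturase entry, was at 40.0, 44.4 and 57.1 with 0.15. The 6 h direction of Scd1 was fixed by the floor, which its control level did not reach. Srebf1 was highest at 6 h and both desaturase rows at 12 h. The synthase Fasn was at 6.78 and 8.58 FPKM and ATP citrate lyase (Acly) at 2.06 and 2.42. The synthesis list had a median of 0.22 over 10 genes and the oxidation list 0.23 over 9, with 8 of each above the all-gene median and no oxidation gene at 0.5. Among oxidation genes the carnitine transferase Cpt1c was at 1.02 and 1.32 and the dehydrogenase Acadvl at 4.77 and 5.79 FPKM.

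Of the lipid droplet genes, the lipase Pnpla2 (ATGL) and its inhibitor G0s2 lay at opposite ends. The 8 compared had a median of 0.22, and 1 rose against 1.05% of all genes. By 0.5, 2 were higher against 7.14% and 1 lower against 3.79%. G0s2 had levels of 0.471 (control), 2.28 (6 h) and 1.33 FPKM (12 h), a 4.84-fold rise at 6 h with a difference of 2.27, at a low level. It passed the floor only through its 6 h level, so its direction was fixed by the floor. Pnpla2 was at 2.12, 1.23 and 2.85 FPKM, a 6 h difference of -0.78. The 6 h library was thus the highest of the 3 for the inhibitor and the lowest for the lipase. Between them, the triglyceride synthase Dgat1 was at 0.962 and 1.38 and the droplet coat Plin2 at 1.15 and 1.31 FPKM. The cholesterol esterifying enzyme Lcat was at 0.793 and 1.51 (0.93), the fatty acid carrier Fabp3 at 1.54 and 2.59 (0.75), and the lipoprotein receptor Lrp1 at 3.39 and 2.61 (-0.38). Dgat1 and Lcat, like G0s2, passed the floor only through their 6 h level.

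Transcripts of the mitochondrial genome were lower as a group at 6 h. Of its 13 protein genes 5 fell by at least 2-fold against 0.886% of all genes, 11 were lower by 0.5 or more against 3.79%, and the list median was -0.99. ND5, a subunit of respiratory complex I, fell from 108 to 43.5 FPKM and stood at 69.6 after 12 h, a 6 h difference of -1.31. ND6, the only one of these encoded on the light strand, was at 42.1, 18.2 and 33.0 with -1.21, and ATP8, of the ATP synthase, at 170, 76.3 and 127 with -1.16. ND4L and ND4 differed by -1.09 and -1.07. For these 5 genes the 6 h library was the lowest of the 3. COX1, the most abundant, was at 2648, 1948 and 3914 FPKM with -0.44, and ND3 was at 416, 445 and 374 with 0.10. Summed, the 13 genes made up 5315, 3599 and 6016 FPKM, and without COX1 2667, 1651 and 2102. The mitochondrial ribosomal RNAs Rnr1 and Rnr2 were at 2206 and 1105 and at 5614 and 4785 FPKM.

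The nuclear genes of the same complexes did not share that difference. The 64 compared had a median of 0.11, ran from -0.20 (Ndufs6, 9.41 and 8.21 FPKM) to 0.50 (Cyc1, cytochrome c1, 14.9 and 21.1 FPKM), and 37 lay above the all-gene median. The TCA cycle and pyruvate list had a median of 0.08 over 24 genes. Among its lower members were the cytosolic dehydrogenase Idh1 (2.38 and 1.71 FPKM) and the pyruvate dehydrogenase subunit Pdha1 (13.1 and 9.47), with differences of -0.48 and -0.46. Idh3g was the highest at 1.57 and 2.26 FPKM. In the neuron-labelled cultures at 6 h, which share no library with these, the 13 mitochondrial genes had a median of 0.47. Ribosomal RNA left after depletion also differed between the astrocyte libraries, with Rn18s at 13.0 and 3.24 FPKM, Rn28s at 4.09 and 1.35 and the precursor Rn45s at 11771 and 7752, and its part in the mitochondrial values was not tested.

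**Figure D4:**
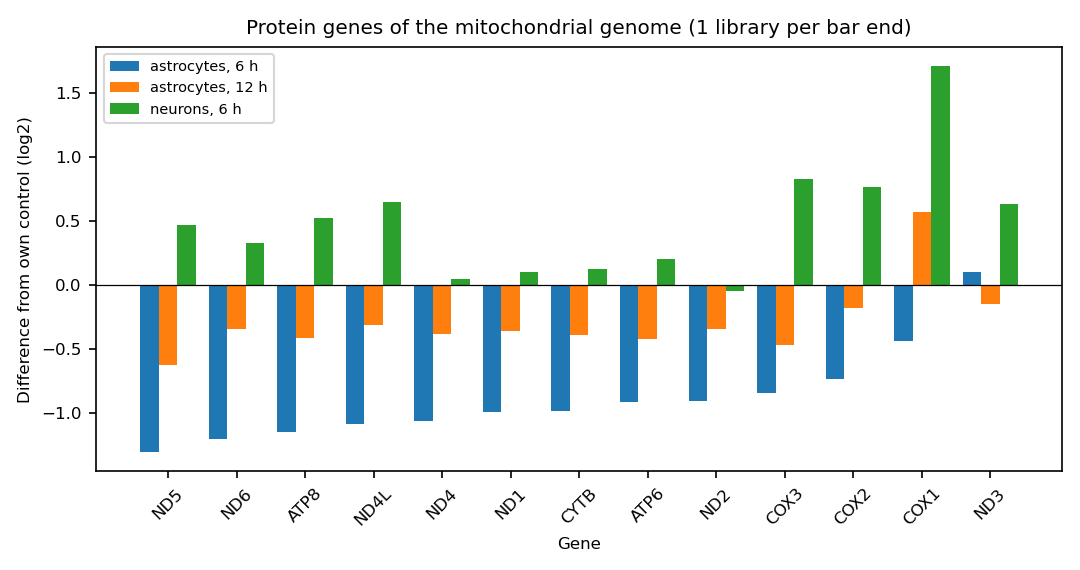
Difference from the cell type's own control (log2) for the 13 protein genes of the mitochondrial genome, at 6 h and 12 h in astrocyte-labelled and at 6 h in neuron-labelled cultures. Each bar is the difference of 2 single libraries, and both astrocyte bars share the control. At 6 h astrocyte-labelled bars run from -1.31 (ND5) to 0.10 (ND3), and 12 of the 13 are below 0.

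Matrix genes had no common direction at 6 h. The 11 collagens compared had a median of 0.10, the 23 glycoproteins -0.03 and the 10 proteoglycans and hyaluronan genes -0.06, and 1 of all these rose. Col1a1 had levels of 44.2 (control), 49.4 (6 h) and 60.4 FPKM (12 h), with a 6 h difference of 0.16. Col3a1 was at 21.4, 17.1 and 24.8 with -0.32, Col11a1 at 2.16, 1.42 and 2.04 with -0.61, and Col5a1 at 1.24, 1.66 and 1.82 with 0.42. Fibronectin (Fn1) was at 28.2 and 22.9 FPKM, the basement membrane linker Nid1 at 7.38 and 5.50, and Thbs1, the most abundant glycoprotein gene, at 660 and 605. Mgp, an inhibitor of calcification, rose from 0.481 to 1.02 FPKM, at the floor, and was at 0.315 at 12 h. Among proteoglycans the neural lectican Ncan was at 6.71, 9.06 and 5.67 FPKM with 0.43.

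Long genes tended lower at 6 h, which touches the matrix lists. Over 4552 named genes with a span in the RefSeq table, 98.2% of those compared, the median difference was 0.16 in the shortest quintile of genomic span and -0.02 in the longest, from 28.9 kb upward. At 12 h these medians were 0.04 and 0.09. The median span was 111 kb for the collagens, 39.8 kb for the glycoproteins and 1.85 kb for the chemokines. The part of gene length in the list medians was not tested.

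Enzymes that cut or protect matrix held several of the larger matrix differences. Plau, the urokinase that activates plasmin, had levels of 4.33 (control), 7.67 (6 h) and 5.94 FPKM (12 h), a difference of 0.83. Timp1, a metalloprotease inhibitor that reactive astrocytes make, lay lower at 10.0, 6.64 and 6.41 FPKM with -0.60, and Mmp11 at 1.94, 1.10 and 0.966 with -0.81. The list of 13 had a median of 0.11, with 2 members higher and 2 lower by 0.5, against 7.14% and 3.79% of all genes. Collagen processing genes had a median of 0.19 over 18, including the collagen chaperone Serpinh1 at 72.5 and 91.8 and the crosslinker Lox at 8.02 and 6.52 FPKM. Integrins and their partners had a median of 0.02 over 11. Actb and Actg1 stood apart from the rest of the contractile list, whose median was 0.01 over 24: Actb was at 1564, 2906 and 2368 FPKM (0.89) and Actg1 at 287, 364 and 409 (0.34), while Acta2 was at 54.4 and 47.4 and caldesmon (Cald1) at 14.4 and 10.4.

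**Figure D5:**
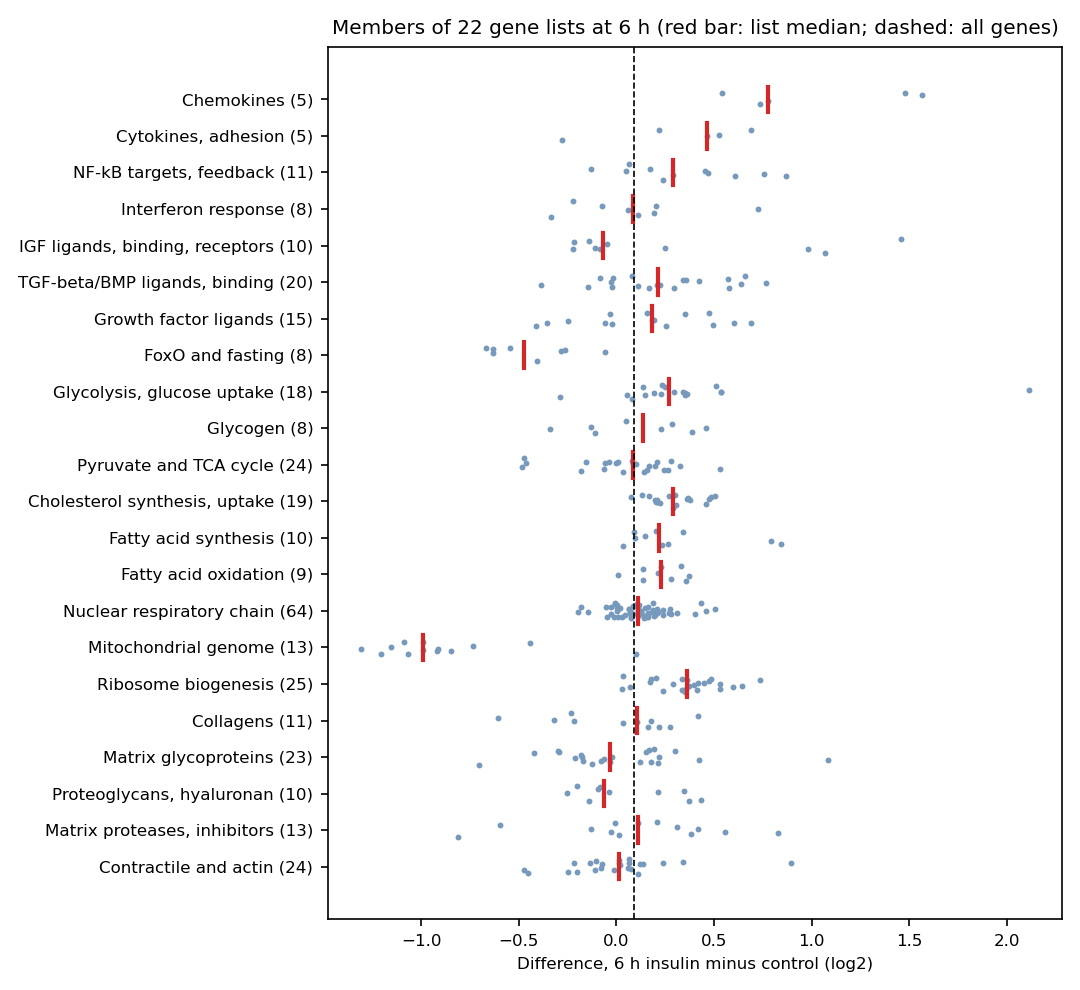
Differences at 6 h (log2, horizontal axis) of the members of 22 gene lists, 1 point per gene with the number compared in brackets; red bars are list medians and the dashed line is the median of all genes, 0.09. Among these 22 of the 44 program lists, chemokines (0.78) lie furthest to the right, and the mitochondrial genome (-0.99) and FoxO genes (-0.47) furthest to the left. The list of structural noncoding RNAs, with a median of -0.56, is not plotted.

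Apart from these programs, genes that build ribosomes were higher together by small amounts. Of 25 compared 22 lay above the all-gene median, 5 reached 0.5 against 7.14% of all genes, none rose 2-fold, and the median was 0.36. Rrp9 had levels of 1.04 (control), 1.73 (6 h) and 1.39 FPKM (12 h), a difference of 0.74, and Nop56, a core protein of the RNA-modifying particles of the nucleolus, at 5.95, 9.28 and 8.53 (0.64). Rmrp, the RNA of a nuclease that processes ribosomal and mitochondrial RNA, rose from 4569 to 12927 FPKM, a 2.83-fold rise, and was at 7785 at 12 h. Gas5, from whose introns small nucleolar RNAs are cut, was at 8.33 and 15.4 FPKM. The list of structural noncoding RNAs and host genes, which holds Rmrp, lay lower as a whole, with a median of -0.56 over 9 genes. In that list 2 were higher by 0.5 against 7.14% of all genes and 5 lower against 3.79%. Among the growth response genes Fosl1, a partner of Jun, rose from 0.531 to 1.19 FPKM, while Fos was at 3.21 and 2.03. Cyclin D1 (Ccnd1) was at 45.6 and 63.6 FPKM and the proliferation marker Mki67 at 5.58 and 3.73, in a cell cycle list with a median of 0.09.

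Several large single-gene differences lie in genes with near-identical copies and are uncertain. For 7 of the 2-fold genes the table also held rows that RefSeq names as copies or pseudogenes, and in the sum of each gene with its copies only Rps9 still reached 2-fold. Dpm3, a subunit of a sugar transferase, rose from 3.07 to 6.70 FPKM while its pseudogene row fell from 7.43 to 2.70, and both together were at 10.5 and 9.40. Tpi1 and its copy Tpi1l1 (11.5 and 14.6 FPKM) together were at 13.1 and 21.7, a difference of 0.73 in place of 2.11. Among ribosomal protein genes, whose 72 compared members had a median of 0.15, Rps18, Rps28 and Rpl38 rose at 3.48 FPKM or less beside copies at over 100 FPKM. Their sums differed by 0.42, 0.35 and 0.11. Rps6 fell from 8.49 to 2.29 FPKM, with a sum over its 2 copies and itself of 43.8 and 34.0, a difference of -0.37. Rps9 fell from 7.67 to 2.55 FPKM, and its sum with 4 copies, all under 0.45 FPKM, differed by -1.57. Rps27l3, at 3.41 and 8.42, and Tubb2a_1, at 3.54 and 7.82 FPKM, rose as single rows. Cd151, a tetraspanin, was at 6.23 and 3.24 FPKM, a difference of -0.94.

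At the floor the rule separated genes that were nearly alike. Just inside were Mtcp1, Zfp410 and Uprt and just outside Il17ra, Trappc13 and Csk. Their higher level was 1.00 FPKM inside and 0.999 to 1.00 outside. Blank in 1 of the 2 libraries and at 1 FPKM or more in the other was 1 transfer RNA symbol in each direction.

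Against the neuron-labelled cultures at 6 h, overlap in the same direction lay on the lower side. Of 5052 genes compared in both cell types, 339 were higher by 0.5 in astrocyte-labelled cultures and 46 of them were also higher in neurons, which is 13.6% of the astrocyte list and 6.98% of the 659 in the neuron list, while 13.0% of all 5052 were higher in neurons. Lower in both were 58, or 35.6% of 163 and 32.6% of 178, where 3.52% of all were lower in neurons. Some genes lay in opposite directions: 33 of the 339 were lower in neurons by 0.5, and 31 of the 163 were higher there. Among all 6610 genes of the neuron comparison 12.4% were higher and 3.63% lower by that size. Of the 58 genes 43 were locus, small RNA, pseudogene or clone symbols and 15 were named, among them the ribosomal RNA rows Rn18s, Rn28s, Rn5-8s and Rn45s. The 46 higher ones held 24 named genes, including Ccl2 (a neuron difference of 1.52), Cxcl1 (1.20), Tnfrsf12a (0.91) and Nolc1 (0.58). Ccl7 was under the floor in neurons, where its levels were 0.032 and 0.230 FPKM. Pnpla2 was at 2.30 and 0.834 FPKM there, a difference of -1.46.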

How the data were processed

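Total RNA of 6 rat cultures, 1 library per group, was depleted of ribosomal RNA and sequenced as stranded libraries, per the labels' protocols. The values the authors deposited are log2 FPKM in 1 table, quantile-normalised over the 6 libraries, per the table's name. All columns had the same quantiles, and base 2 was settled from the level of Rn45s. Build Rnor 6.0 and the tools Partek 6.5 and bcl2fastq 2.17.1.14 come from the submitters' processing notes. Which aligner and annotation served is not given in the sources used here. The files hold no counts, so depth is unknown and no counting interval is given. Blank cells were taken as no value, and 0 per-sample columns were left unused.

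Differences were taken on the deposited scale with no pseudocount, using Python 3.11.15, pandas 2.3.3 and numpy 2.4.6, and the counting was tested on simulated data. The members and the 44 program lists and 8 marker lists were chosen with earlier results of these data known. Of 1230 listed program symbols 1200 were matched, 10 by an older name and 7 to the higher of split rows. Named genes are the 12 of each direction with the largest differences at 5 FPKM or more, without locus, small RNA, pseudogene or clone symbols. From each list they are the members at 2-fold, the 6 largest, 6 smallest and 4 most abundant, and any member of a list of up to 25. All markers and the genes at the floor were also named. Some single genes are counted in their lists but not reported here. The alternatives tried were a floor of 5 FPKM, no floor, log2(FPKM + 1), centring, equal quantiles over shared symbols, named genes only, and lists without shared members. Promoters and gene spans are RefSeq's for GRCr8.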

Additional observations from a re-analysis of the deposited data

Results flagged for a closer look

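The difference at 6 h lay on opposite sides of 0 in astrocyte-labelled and neuron-labelled cultures for 1 list whose medians differed by 1 or more, and for 3 of the named genes with a size of 0.5 or more in both. Named genes on opposite sides with a size under 0.5 in the neuron-labelled cultures, such as ND5, ND6 and ND4, are not given here. In each case 1 library stood against 1 control, so the difference between the cell types was not tested. The 13 protein genes of the mitochondrial genome had a median difference of -0.99 in astrocyte-labelled and 0.47 in neuron-labelled cultures. ATP8, of the ATP synthase, had -1.16 and 0.52, and ND4L, of complex I, had -1.09 and 0.65. Rps6, a ribosomal protein with near-identical copies, had -1.89 and 0.63. With no replicates, the spread that chance alone gives between 2 such libraries is unknown.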

How the results depend on the processing

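No paired analysis was possible because each group held 1 library and the labels carry no replicate numbers. Of the 65 higher and 55 lower genes, 14 and 21 were counted with a floor of 5 FPKM and also with log2(FPKM + 1), 1961 and 912 with no floor, and 34 and 15 among named genes only, since fewer or more genes, or smaller folds at low level, enter by construction. The higher count was 43 after centring and 36 with equal quantiles over shared symbols, with 64 and 65 lower. The chemokine median of 0.78 was 1.48 at a floor of 5 FPKM, 1.35 with no floor, 0.59 with log2(FPKM + 1) and 0.67 with equal quantiles. The FoxO median of -0.47 was -0.35, -0.20 and -0.36 under the first 3 of these. At 5 FPKM the chemokine list held only Ccl2, Ccl7 and Cxcl1, and its median was the value of Ccl2. Each of them reached 5 FPKM only at 6 h, so their direction was fixed by that floor. The collagen median of 0.10 was 0.0013 with equal quantiles. List medians changed sign in 24 of 279 alternatives, over 14 lists, and 13 of these moved by under 0.1. At 5 FPKM the sign changed for stress and serine genes (0.21 to -0.15), tRNA synthetases (0.17 to -0.12), interferon response (0.08 to -0.22), the TCA cycle (0.08 to -0.16), IGF genes (-0.07 to 0.10), proteoglycans (-0.06 to 0.14) and cytokine receptors (-0.06 to 0.57). The antioxidant list also changed sign there, by a smaller amount (0.05 to -0.02). At that floor the interferon list held only B2m and the cytokine receptors only Tnfrsf12a, so these 2 values are those of single genes. With no floor the sign changed for structural noncoding RNAs (-0.56 to 0.12), matrix glycoproteins (-0.03 to 0.12), proteoglycans (to 0.16) and cytokine receptors (to 0.29). IGF genes changed sign there too, by a smaller amount (-0.07 to 0.0099). The cause of these shifts was not tested beyond the change in members. Of all list medians under the alternatives, 240 moved by under 0.1 and 39 by more. Of the values of the 24 highest-ranked genes, 127 moved by under 0.1 and 17 by more, none with a change of sign. Depth is unknown, so precision at low level cannot be stated.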

Other observations

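Among stress and redox genes, the antioxidant list had a median of 0.05 over 17 genes, near that of all genes (0.09). Heme oxygenase (Hmox1) had levels of 5.29 (control), 8.48 (6 h) and 8.22 FPKM (12 h), while the ferritin chain Fth1 was at 2.03, 1.19 and 1.35 and catalase (Cat) at 1.27, 0.905 and 1.02. Chaperones of the endoplasmic reticulum had a median of -0.02 over 19 genes, with Hspa5 at 120 and 129 FPKM. The hypoxia list lay higher, with a median of 0.30 over 14 genes and 11 above the all-gene median. Of these, 4 were higher by 0.5 against 7.14% of all genes: Stc2, Adm and Ldha, described above, and Higd1a. The direction of Stc2 was fixed by the floor, which it passed only through its 6 h level. The heat shock list had a median of 0.18 over 13 genes, 11 of them above the all-gene median.

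Some named genes with large differences at low level lie outside the naming rule and were chosen after their values were seen. Dll4, a Notch ligand, had levels of 2.07 (control), 0.399 (6 h) and 0.328 FPKM (12 h), and in the neuron-labelled cultures 5.75 (control) and 0.536 (6 h). Armcx1 was at 3.34, 0.718 and 0.735 FPKM in the astrocyte-labelled libraries. Klhl24 was at 1.62, 0.753 and 0.983 and Ypel3 at 2.33, 1.04 and 1.24. Foxs1, a forkhead factor, was at 0.945, 1.94 and 0.822 FPKM, high at 6 h alone.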
